A study of Mus musculus with 8 samples.

Results

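EPZ4777, which blocks the histone methyltransferase DOT1L, was compared with its solvent DMSO over all 4 pairs of arrays of the series, whatever hairpin the cells carried and however long they had been in the drug. The comparison used 8 of the 8 arrays, each made from total RNA of murine leukemia cells driven by MLL-AF9, in which part of the methyltransferase MLL is joined to the protein AF9. A pair was the DMSO and the EPZ4777 array that share a code in their titles. Codes A4 and D11 carried a hairpin against luciferase (shLUC), which has no mouse target, and their treated arrays were taken after 6 days in 3 µM EPZ4777. Codes A1 and A5 were labelled as carrying a hairpin against Sirt1 (shSirt1), and their treated arrays were taken after 21 days in 3 µM EPZ4777. The hairpin and the time in drug therefore cannot be told apart, and the 4 DMSO arrays are labelled as controls with no time. All 8 samples grew in the same medium with serum, SCF, IL-3 and IL-6. The labels do not say what a code stands for, or whether it is 1 clone or culture. The spread that p-values measure here is that of the pair differences (EPZ4777 minus DMSO) between codes. In the comparison over all 4 pairs it holds any difference between the 6-day and the 21-day pairs. Apart from that it may be technical.

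DOT1L methylates histone H3 within the bodies of transcribed genes. MLL fusions such as MLL-AF9 draw it, through AF9 and its partners, to genes of blood progenitors, among them the later HOXA genes and Meis1, and inhibitors of DOT1L were developed against leukemias of this kind. Neutrophils mature from such progenitors in steps: proteins of the primary granules are made first, those of the secondary and tertiary granules later, and receptors for chemoattractants last.

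The labels were checked first. Median log2 intensity over all probe sets lay between 5.22 and 5.28 on the 8 arrays. Ptprc, the pan-leukocyte phosphatase CD45, had log2 intensities of 11.54 to 12.63, Mpo, the myeloperoxidase of immature granulocytes, 12.75 to 13.56, and Kit, the SCF receptor, 8.58 to 9.71. Hoxa9, a target of MLL fusions, lay at 12.17 to 12.83. Sirt1, an NAD-dependent deacetylase, stood at 56.5% (DMSO) and 57.3% (EPZ4777) of the mean of shLUC arrays in A1, but at 102% and 105% in A5, so A5 carries the hairpin label without a lower Sirt1 signal. The A1 control also stood apart in genes of fibroblast matrix: the collagen gene Col3a1 lay there at 6.92 and on the other 7 arrays at 2.84 to 3.13, and the proteoglycan gene Dcn at 7.27 against 4.48 to 4.79. Dot1l itself did not pass the pooled test (-0.08 ± 0.0776, log2 difference EPZ4777 minus DMSO ± standard error over 4 pairs, as in all later brackets).

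The sequences just before the start of the leading genes are shown because these genes carry the response common to the 4 pairs. The first 3 rises and first 3 falls in the order described further on that had an entry in RefSeq (GRCm38.p6) are given, each as the 250 bases before its first listed start, 5′ to 3′ on the strand of the gene, with every CpG dinucleotide in capitals. Cd177 lies at chr7:24760312-24760561 (minus strand), Lcn2 at chr2:32387740-32387989 (minus strand) and Cd200r4 at chr16:44820478-44820727 (plus strand). Glra3 lies at chr8:55940168-55940417 (plus strand), Meis1 at chr11:19018970-19019219 (minus strand) and Cdkn2c, with 2 listed starts, at chr4:109666757-109667006 (minus strand).
Cd177: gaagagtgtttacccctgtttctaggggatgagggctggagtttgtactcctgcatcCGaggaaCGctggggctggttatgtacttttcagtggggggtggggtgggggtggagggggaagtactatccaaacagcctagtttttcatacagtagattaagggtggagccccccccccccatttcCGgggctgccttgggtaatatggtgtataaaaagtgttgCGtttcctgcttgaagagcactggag
Lcn2: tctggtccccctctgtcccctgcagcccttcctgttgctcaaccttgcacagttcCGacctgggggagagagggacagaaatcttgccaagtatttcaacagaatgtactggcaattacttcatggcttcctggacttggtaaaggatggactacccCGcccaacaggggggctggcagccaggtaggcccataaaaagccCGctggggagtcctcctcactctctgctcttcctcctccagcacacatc
Cd200r4: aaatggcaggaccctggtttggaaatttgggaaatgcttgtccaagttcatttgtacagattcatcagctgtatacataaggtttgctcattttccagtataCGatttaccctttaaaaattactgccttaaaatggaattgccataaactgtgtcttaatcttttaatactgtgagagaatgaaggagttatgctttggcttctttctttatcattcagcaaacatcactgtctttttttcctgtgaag
Glra3: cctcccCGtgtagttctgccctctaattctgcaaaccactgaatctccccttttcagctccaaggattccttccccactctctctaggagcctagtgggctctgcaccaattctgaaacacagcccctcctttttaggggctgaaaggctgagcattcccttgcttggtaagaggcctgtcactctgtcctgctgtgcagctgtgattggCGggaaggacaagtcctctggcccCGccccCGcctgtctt
Meis1: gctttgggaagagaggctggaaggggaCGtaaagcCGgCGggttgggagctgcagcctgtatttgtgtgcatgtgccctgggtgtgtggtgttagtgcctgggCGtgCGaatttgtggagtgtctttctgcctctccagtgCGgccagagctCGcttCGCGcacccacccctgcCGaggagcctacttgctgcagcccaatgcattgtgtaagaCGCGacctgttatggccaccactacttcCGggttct
Cdkn2c: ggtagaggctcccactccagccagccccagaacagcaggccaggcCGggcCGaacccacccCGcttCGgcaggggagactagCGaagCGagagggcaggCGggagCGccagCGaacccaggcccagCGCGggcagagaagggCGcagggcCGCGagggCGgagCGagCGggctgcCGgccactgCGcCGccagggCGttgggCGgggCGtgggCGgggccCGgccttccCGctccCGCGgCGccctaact
These windows held 4, 3 and 1 CpG in the 3 genes that rose, and 4, 13 and 29 in Glra3, Meis1 and Cdkn2c, which fell. One copy of the letters TTGCNNAA, a core of the sites bound by C/EBP factors, lay in the windows of Lcn2, Cd200r4 and Glra3 on either strand.

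Of 18193 genes, 2367 (13.0%) differed between EPZ4777 and DMSO at a Benjamini-Hochberg adjusted p under 0.05 in limma with the code as a block. The count was 1151 higher (6.33%) and 1216 lower (6.68%). Of the 2367, 2366 had 1 sign in all 4 pairs, against 6971 (38.3%) of all genes, 3403 higher (18.7%) and 3568 lower (19.6%). The test weighs the mean of the pair differences against their spread, so a call all but requires 1 sign. The count is therefore no separate evidence of a common response. On 1779 of the 2367 genes no EPZ4777 array overlapped any DMSO array, and over all genes 3273 (18.0%) showed such a gap. The count of calls rested on some pairs more than others. It was 1438 without A4, 314 without D11, 2259 without A1 and 662 without A5, and 1359 without the block. None of the 128 genes that the naming rule gave changed direction with a pair left out or without the block. A gene with 1 sign in all 4 pairs cannot do so, and the block leaves the mean difference unchanged.

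Large changes were mostly rises. In 110 genes (0.605% of those tested) every pair rose by at least 1 on the log2 scale, and in 30 (0.165%) every pair fell by as much. All 140 passed the test. Leaving out a pair can only keep or raise those counts. Without A4 201 genes rose and 64 fell by that much in each remaining pair. The counts were 112 and 31 without D11, 156 and 47 without A1, and 123 and 35 without A5. Of the 2367 calls, 799 differed by under 0.5 log2 on average.

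**Figure D1:**
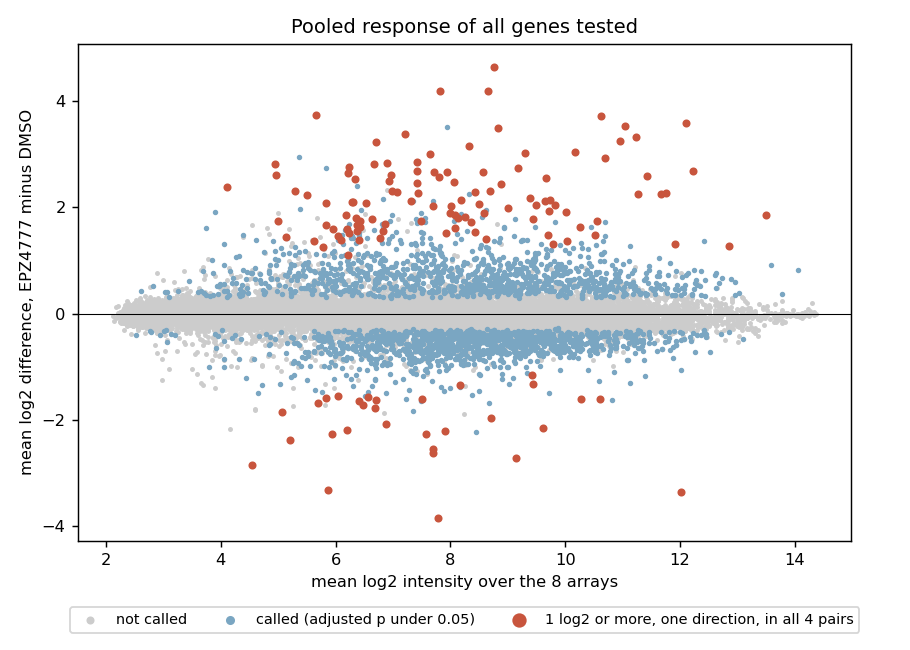
The mean log2 difference of each gene (EPZ4777 minus DMSO over 4 pairs) is plotted against its mean log2 intensity over the 8 arrays. Grey points did not pass the test, blue points did, and red points moved by at least 1 log2 in 1 direction in all 4 pairs: 110 lie above 0 and 30 below it.

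The pairs differed in the size of the response. Among the 140 genes the median rise was 1.54 in A4, 2.28 in D11, 2.11 in A1 and 2.51 in A5, and the median fall -1.39, -1.99, -1.77 and -2.15. A4 had the smallest change of the 4 pairs in 87 of these 140 genes and A5 the largest in 66. Over all 2367 calls A1 was smallest most often, in 1143 genes against 919 for A4, and D11 was largest most often, in 1251 genes against 721 for A5. Of 321 genes that moved by 1 log2 or more in 1 direction in both shLUC pairs, 272 had the same sign in both pairs labelled shSirt1. Of 346 that did so in both pairs labelled shSirt1, 316 had the same sign in both shLUC pairs.

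The genes with the largest rise in their weakest pair were led by Cd177, a surface protein of neutrophils. Its log2 intensity was 6.63 (A4), 7.49 (D11), 5.65 (A1) and 6.46 (A5) in DMSO and 9.97, 12.06, 9.9 and 11.04 in EPZ4777. Every treated array lay above every control, with D11 highest under both agents and A1 lowest. The mean difference was 4.18 ± 0.21 (adjusted p = 0.000972), an 18.2-fold rise.

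Arg2, the mitochondrial arginase, came second. It stood at 3.52, 4.76, 2.99 and 3.89 in DMSO (A4, D11, A1 and A5, as in all later series of 4 values) and at 6.76, 8.98, 6.38 and 7.94 in EPZ4777. The arrays kept the order D11, A5, A4, A1 under both agents while all 4 rose (3.72 ± 0.18, adjusted p = 0.000972). Lcn2, an iron-scavenging protein of the secondary granules, went from 9.16, 10.2, 8.27 and 9.48 to 12.06, 13.44, 12.39 and 13.32 (3.52 ± 0.201, adjusted p = 0.00109). A1, lowest in DMSO, rose most, so that the treated arrays lay closer together than the controls. Cd200r4, a receptor of the CD200 receptor family, went from 6.38, 7.18, 5.77 and 5.23 to 9.19, 10.06, 8.91 and 8.38. Its pairs rose almost evenly, by 2.81, 2.88, 3.15 and 3.15 (3.00 ± 0.0919, adjusted p = 0.000372).

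Several of the next genes encode granule or neutrophil proteins. Ceacam10, of the carcinoembryonic antigen family, rose by 4.64 ± 0.439, with 2.81 in A4 and 4.78 to 5.65 in the other pairs. Stfa3, a stefin that inhibits cysteine proteases, rose by 3.72 ± 0.389. Olfm4, a glycoprotein of secondary granules, rose by 3.24 ± 0.187, in a range of 2.78 to 3.95 over the pairs. Chil3, a chitinase-like lectin, was the most uneven of the leading rises: 3.07, 2.6, 6.02 and 2.68 (3.59 ± 0.56, adjusted p = 0.015). The value for A1 followed from its low control, 7.4 against 10.82, 11.56 and 11.49, and Chil3 did not pass without D11 (adjusted p = 0.0634).

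The other 4 were of mixed kinds. Stx3, a syntaxin that drives vesicle fusion at the plasma membrane, rose by 2.84 ± 0.109, and all 4 of its probe sets had the same sign. S100a6, a calcium-binding protein, rose by 2.92 ± 0.118. Nrep, described as a regeneration-related protein of neurons, rose by 3.23 ± 0.234, least in A1 (2.28), where its control level of 6.53 was the highest. Slco4c1, an organic anion transporter, rose by 2.83 ± 0.215, with A4 and A1 (2.26 and 2.45) below D11 and A5 (3.05 and 3.57). With the mean over probe sets in place of the brightest, Stx3 rose by 1.67. Of these 12 rises, Chil3 was the one that lost its call when a pair was left out.

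Glra3, a subunit of the glycine receptor, led the falls. In DMSO it stood at 9.77, 9.9, 9.77 and 9.38 and in EPZ4777 at 7.19, 6.06, 5.93 and 4.25. The 4 controls lay close together and the treated arrays spread widely, with A4 highest and A5 lowest (-3.85 ± 0.36, adjusted p = 0.00451). Meis1, the homeobox cofactor of HOX proteins, went from 7.62, 7.93, 7.64 and 6.91 to 4.01, 3.62, 5.26 and 3.93 (-3.32 ± 0.292, adjusted p = 0.00442). The remainder was highest in A1, and 2 of the 3 Meis1 probe sets had this sign. Cdkn2c, an inhibitor of the kinases CDK4 and CDK6, went from 10.51, 10.84, 10.77 and 9.9 to 7.59, 8.02, 7.78 and 7.75 (-2.72 ± 0.15, adjusted p = 0.00106). The treated arrays lay within a narrow band although A5 had started lowest.

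Irf8, which directs monocyte and dendritic cell development, went from 9.16, 9.4, 8.9 and 8.53 to 7.57, 7.02, 5.95 and 4.98. The differences were -1.59, -2.39, -2.95 and -3.54, largest in A5, and no treated array reached the controls (-2.62 ± 0.292, adjusted p = 0.00689). Ly86, the partner of the Toll-like receptor homologue Cd180, fell by 2.08 on average (standard error 0.175). Lat2, an adaptor of immune receptor signalling, fell evenly, by 1.78 on average (standard error 0.0928), but only 1 of its 3 probe sets had this sign.

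Hoxa11, of the HOXA cluster, fell to 7.22, 7.71, 5.44 and 6.87 from 9.18, 9.43, 8.38 and 9.08 (-2.20 ± 0.192, adjusted p = 0.00442). Cgnl1, a protein of cell junctions, fell (-2.55 ± 0.184), with all 5 of its probe sets of this sign. Abcb1b, a multidrug efflux transporter, and Muc13, a membrane mucin, fell by less (-1.85 ± 0.113 and -1.97 ± 0.179). Rabgap1l, an activator of Rab GTPase hydrolysis, gave the most even fall among genes past 1 log2 in every pair: -1.32, -1.32, -1.41 and -1.32 (-1.34 ± 0.0717), with 4 of 5 probe sets of this sign.

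Hpgd, the enzyme that inactivates prostaglandins, was the opposite case. Its controls stood at 13.74, 13.65, 13.73 and 13.6, and its treated arrays at 12.5, 10.72, 10.33 and 7.77. The controls were nearly equal, while the treated levels ran from A4 at the top to A5 at the bottom (-3.35 ± 0.649, adjusted p = 0.0255). Without D11 Hpgd did not pass (adjusted p = 0.11), alone among the 12 leading falls. With the mean over probe sets in place of the brightest, 6 of the 12 falls were smaller by over 1.5 times and still passed: Glra3 (-2.22), Meis1 (-1.70), Cgnl1 (-1.19), Abcb1b (-0.95), Rabgap1l (-0.89) and Lat2 (-0.48).

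**Figure D2:**
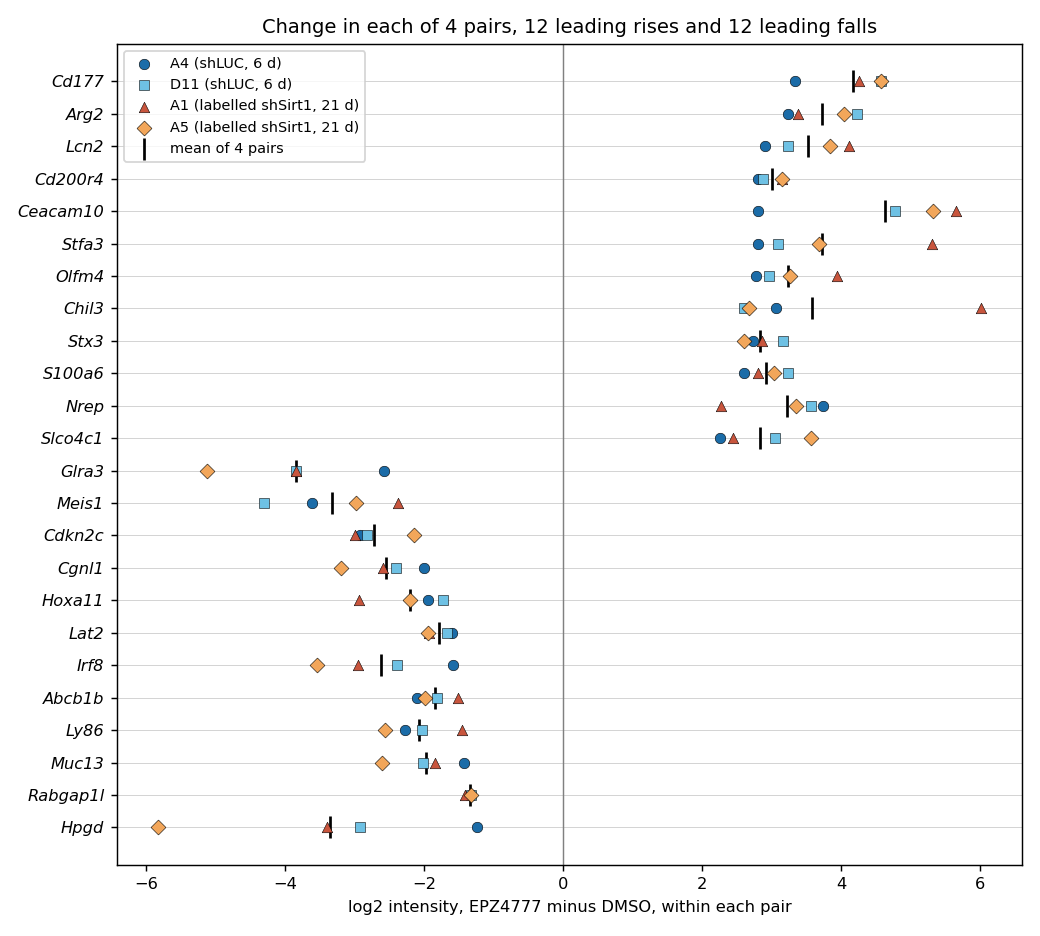
Each row is 1 gene, each symbol the log2 difference (EPZ4777 minus DMSO) of 1 pair, and the bar the mean of the 4 pairs. Cd177 lies between 3.34 and 4.57 in the 4 pairs, Rabgap1l between -1.41 and -1.32, and Hpgd between -5.83 and -1.24.

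**Figure D3:**
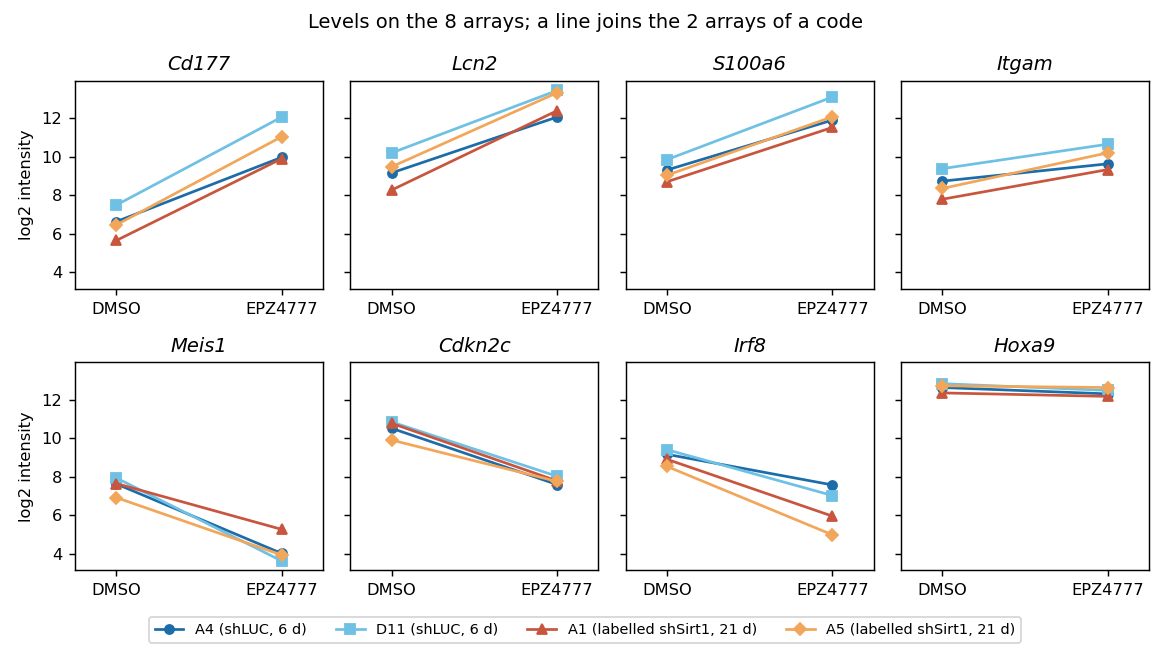
Log2 intensities on the 8 arrays are drawn for 8 genes, with a line joining the DMSO and the EPZ4777 array of a code. The lines of Cd177, Lcn2 and S100a6 rise and those of Meis1, Cdkn2c and Irf8 fall with no overlap between the agents, those of Itgam rise with some overlap, and Hoxa9 stays between 12.17 and 12.83.

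Genes known as targets of MLL-AF9 fell in part. Of 20 measured, 7 fell and 1 rose, and 16 had a negative difference. Their median difference was -0.28, beside 0.005 for all genes. Besides Meis1 the largest falls were Hoxa5 (-1.45 ± 0.237), Six4, a homeobox factor (-1.36 ± 0.169), Fut8, a fucosyltransferase (-1.18 ± 0.196, but -0.61 with the mean over probe sets), and Mef2c, a transcription factor (-1.14 ± 0.12). Cdk6, a kinase of the G1 phase, fell by less (-0.59 ± 0.0962), and Cpeb2, a regulator of mRNA translation, rose by 1.01. Without D11, 2 of the 20 fell and none rose.

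Within the HOXA cluster 4 of 9 measured genes fell and none rose, with a median of -0.45. Hoxa11, Hoxa5, Hoxa2 (-0.86 ± 0.0807) and Hoxa10 (-0.73 ± 0.169, adjusted p = 0.0396) passed, and Hoxa10 did not pass with any 1 pair left out or with the agent as the only term (adjusted p = 0.114). Hoxa9 gave -0.33, -0.35, -0.18 and -0.09 (mean -0.24 ± 0.0816, adjusted p = 0.108). All 4 Hoxa9 values were negative, but the arrays of both agents overlapped. With the mean of its 2 probe sets Hoxa9 passed (-0.39, adjusted p = 0.0391). Hoxa7 gave -0.99, -0.72, -0.12 and 0.03 (adjusted p = 0.153), with the larger values in the shLUC pairs, where alone it passed (-0.86, adjusted p = 0.0112). The difference between the hairpin arms did not pass for Hoxa7 (adjusted p = 0.322). None of 16 genes of DOT1L and of the complexes of MLL fusion partners passed, and their median was -0.04.

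Proteins of the secondary and tertiary granules were the group with the highest median, 2.31, and 14 of 17 rose, none fell and 16 had a positive sign in all 4 pairs. The list median was 1.28 in A4, 2.6 in D11, 2.23 in A1 and 3.2 in A5. Camp, the cathelicidin peptide, rose by 3.32, Ngp, a neutrophilic granule protein, by 2.68, and Fcnb, a ficolin, by 2.60. Ltf, lactoferrin, rose by 3.51 ± 0.635, from 6.33, 6.92, 4.54 and 6.93 to 7.26, 11.27, 8.1 and 12.15. Its rise was 0.93 in A4 and 3.56 to 5.22 elsewhere, and its call was lost without D11 or A5. Mmp9, a gelatinase of tertiary granules, did not pass (2.31, adjusted p = 0.069). Without D11, 7 of the 17 passed, and 12 to 16 passed without another pair.

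Primary granule proteins did not follow. Of 7 measured 1 rose (14.3%, beside 13.0% of all genes) and none fell, with a median of -0.05. The 1 call was Serpinb1a, an inhibitor of neutrophil proteases (0.63 ± 0.0989), and it was lost without D11 or A5. Mpo differed by -0.04, and Elane and Prtn3, serine proteases of these granules, by -0.05 each (adjusted p = 0.807 to 0.812). The mean log2 intensity of the 7 measured genes per array was 12.82 to 13 in DMSO and 12.75 to 13.1 in EPZ4777.

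Of 15 genes of mature neutrophils 11 rose and 1 fell, with a median of 1.41. Il1r2, the decoy receptor for interleukin-1, rose by 3.01 ± 0.233, from 8.36, 8.71, 6.11 and 7.98 to 10.57, 11.55, 9.86 and 11.23. Every treated array was above every control, and the call stood with any pair left out. Stfa2l1, a stefin, and Padi4, the enzyme that citrullinates histones in neutrophils, also rose (2.59 ± 0.372 and 2.12 ± 0.359). Csf3r, the G-CSF receptor, rose by 1.41 ± 0.195, Cxcr2, a chemokine receptor, by 1.57, and S100a9, a calprotectin subunit, by 1.85. Clec4e, a C-type lectin receptor, fell by 0.75 (adjusted p = 0.0484). Without D11, 2 of the 15 rose, without A5 6, and 10 and 11 without A4 and without A1.

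Receptors for chemokines and other chemoattractants gave 6 rises and 2 falls of 14, with a median of 0.62. C5ar1, the receptor for complement C5a, rose by 2.49 ± 0.215 (1.60 with the mean over probe sets) and Ltb4r1, a leukotriene B4 receptor, by 1.92 ± 0.187, each in all fits with a pair left out. Fpr2, a formyl peptide receptor, rose by 1.72 ± 0.303, with 2.33 and 2.58 in D11 and A5 and 1.13 and 0.83 in A4 and A1. Ccr2, the chemokine receptor of inflammatory monocytes, fell from 11.27, 11.21, 9.85 and 10.45 to 10.11, 9.69, 7.54 and 6.87 (-2.15 ± 0.373, adjusted p = 0.0197). Its treated A4 array lay above the A1 control, so the groups overlapped although each pair fell. Without D11 2 of the 14 rose and none fell, and without A5 4 rose.

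Monocyte and macrophage genes were divided, with 4 rises and 4 falls of 26 and a median of 0.28. Irf8, Ccr2, Ly86 and Lpl, lipoprotein lipase (-1.63), fell. Lpl differed by -0.47, -1.24, -3.05 and -1.78, most in A1, whose control stood apart in genes of fibroblast matrix. Cd36 and Apoe of this list, which did not pass, also differed most in A1. Cd36 differed by -6.51 there and by 0.22 to 0.43 in the other pairs, and Apoe by -2.27 there and by -0.47 to -0.11 in the others. The part of the A1 control in these values was not tested. Gpnmb, a lysosome-associated glycoprotein of macrophages (1.72 ± 0.332), Fcgr1 and Fcgr4, receptors for IgG (0.87 and 1.02), and Mrc1, the mannose receptor, rose. Mrc1 went from 4.48, 5.55, 3.53 and 4.35 to 8.62, 9.8, 4.04 and 6.39, with the treated shLUC arrays far above the other arrays and the treated A1 array below the D11 control (2.73 ± 0.617, adjusted p = 0.0372). Its call was lost without A4, D11 or A5. Csf1r, the M-CSF receptor, differed by -0.21 (adjusted p = 0.535). Of 14 genes of dendritic cells and MHC class II, H2-Ab1 (-1.49 ± 0.264) and H2-DMa (-1.26 ± 0.164) fell and Itgax, the integrin CD11c, rose (0.32 ± 0.0791). Without D11 none of the 14 passed, and of the 26 monocyte and macrophage genes none rose and 2 fell.

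Myeloid transcription factors gave 8 rises and 2 falls of 20 (median 0.35). Id2, an inhibitor of helix-loop-helix factors, rose by 2.05 ± 0.238, with 1.43 in A4 and 2.99 in A5. Fos, of the AP-1 complex, and Cebpd, of the C/EBP family, rose by 1.22 ± 0.136 and 1.11 ± 0.101, and both passed with any pair left out. Runx1 (0.89), Spi1, which encodes PU.1 (0.49), Cebpb (0.35), Bach1 (0.35) and Id1 (0.61) rose by less. Tcf4, a helix-loop-helix factor, fell (-1.02 ± 0.106) beside Irf8. Cebpa did not pass (0.28, adjusted p = 0.527), nor did Gfi1, a repressor of granulocyte progenitors (0.48, adjusted p = 0.292). Without D11 3 of the 20 rose and 2 fell.

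Genes of stem and progenitor cells moved both ways, with 4 rises and 4 falls of 18 and a median of 0.01. Erg, an ETS factor, rose by 1.69 ± 0.417, by 2.51 and 2.91 in D11 and A5 but by 0.45 and 0.88 in A4 and A1, and its call was lost without D11 or A5. Prom1, the surface protein CD133, rose by 1.16 ± 0.156. Angpt1, a ligand of the receptor Tek, fell (-1.21 ± 0.156, but -0.70 with the mean over probe sets), as did Cd48 (-1.09 ± 0.141), Msi2, an RNA-binding protein (-0.72), and Cd34 (-0.41). Kit did not pass (0.49, adjusted p = 0.151). Without D11 none of the 18 rose and 1 fell, and without A5 2 rose and 2 fell.

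Inhibitors of cyclin-dependent kinases and cyclins of the G1 phase were split evenly, with 5 rises and 5 falls of 17. Cdkn2c fell, while 2 other genes of the INK4 kind rose, Cdkn2d by 0.86 ± 0.146 and Cdkn2a by 0.96 ± 0.176. Ccnd3, a D-type cyclin, rose by 0.74 ± 0.124, while Ccnd2 fell (-0.73 ± 0.12), as did Cdk4 (-0.58) and Cdk6. Cdkn1a, the kinase inhibitor p21, fell by 0.62 (adjusted p = 0.0299). Without D11 Cdkn2c was the 1 call left in this list, and without A5 2 rose and 2 fell. Genes of DNA replication hardly entered the calls: 1 of 23 passed, Gins1 (-0.39 ± 0.0852), although 21 of 23 differences were negative (median -0.11). Of 23 genes of mitosis 3 rose and 1 fell, a share of 17.4% beside 13.0% of all genes, each by under 0.5 log2. Among them were Cenpe, a kinetochore motor (0.43 ± 0.0814), and Mki67 (0.36 ± 0.0832). No mitosis gene passed without A4, without D11 or without A5, and 3 rose without A1. Mki67, the proliferation antigen, lost its call in each fit with a pair left out.

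Genes of ribosome biogenesis and other MYC targets fell together in this fit: 14 of 26 fell, none rose, and 25 differences were negative (median -0.50). Odc1, the first enzyme of polyamine synthesis, stood at 12.68, 12.61, 12.6 and 12.63 in DMSO and at 11.75, 11.37, 12.4 and 12.08 in EPZ4777. The controls were nearly equal, and the shLUC arrays fell furthest (-0.73 ± 0.169, adjusted p = 0.0398). Nop56, a protein of small nucleolar particles (-0.69 ± 0.125), and Wdr12 and Wdr74, factors of ribosome assembly (-0.72 ± 0.149 and -0.72 ± 0.148), gave similar values, but Wdr12 did not pass with the mean over probe sets (-0.40, adjusted p = 0.0978). The list median was -0.56 in A4, -0.94 in D11, -0.17 in A1 and -0.49 in A5. The calls did not stand without single pairs: 1 gene fell without A4, none without D11 or A5, and 18 without A1. Myc did not pass (0.20 ± 0.137, adjusted p = 0.383), with 0.63 in A4 and -0.22 in A5.

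Other lists of growth and metabolism leaned the same way with smaller values. Of 13 cytosolic translation factors 5 fell and none rose (median -0.36), led by Eif2b3 (-0.74 ± 0.157) and Eif1a (-0.64 ± 0.124). For ATF4 targets and the unfolded protein response 6 of 23 genes fell and none rose (median -0.22), among them Slc7a11, the cystine transporter (-0.97 ± 0.2), Atf3 (-0.84 ± 0.119) and Trib3 (-0.80 ± 0.15). Of 24 genes of mitochondrial respiration 6 fell and none rose (median -0.21), and Sdha, Atp5a1, Atp5b and Ndufs3 fell by 0.33 to 0.39. These respiration calls vanished in every fit with a pair left out. Calls made up 38.5% of the translation list, 26.1% of the ATF4 list and 25% of the respiration list, beside 13.0% of all genes.

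Glycolysis and hypoxia genes gave 5 falls and 2 rises of 20 (median -0.27). Slc2a3, a glucose transporter, rose from 8.31, 8.66, 8.82 and 8.52 to 9.5, 11.54, 10.26 and 11.52 (2.12 ± 0.328, adjusted p = 0.0146). Its rise was 1.19 and 1.43 in A4 and A1 but 2.88 and 2.99 in D11 and A5, and its mean over probe sets rose by 1.22. Bnip3, a mitophagy receptor, fell in the same uneven way, with -0.57, -2.12, -0.72 and -1.8 (-1.30 ± 0.272), and lost its call without D11 or A5. Car9, a carbonic anhydrase, fell evenly (-0.80 ± 0.0912). Of 20 genes of cholesterol and fatty acid synthesis 4 fell and none rose (median -0.16), with Elovl6, a fatty acid elongase, at -1.22 ± 0.232. Of 21 lysosome genes 5 rose and none fell (median 0.20), led by Neu1, a sialidase (0.82 ± 0.123), and Ctsd, cathepsin D (0.71 ± 0.142). The share of calls was 35% in the glycolysis list, 20% in the cholesterol list and 23.8% in the lysosome list, beside 13.0% of all genes. Without D11 no gene of the translation, ATF4, cholesterol and lysosome lists passed and 1 of the glycolysis list did, and without A5 at most 2 of any of these lists passed.

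Components of BMP, activin and TGF-beta signalling gave 8 rises and no fall of 25 (median 0.45). Inhba, the ligand subunit of activin A, stood at 6.58, 6.44, 6.35 and 6.18 in DMSO and at 8.02, 9.45, 9.19 and 9.51 in EPZ4777. The controls differed little, and A4 rose least (2.66 ± 0.293, adjusted p = 0.00683), although only 1 of the 2 Inhba probe sets had this sign and their mean rose by 1.31. Among receptors Acvr2a (0.58), Acvr1b (0.49), Tgfbr1 (0.45) and Tgfbr2 (0.78 ± 0.195) rose, the last without passing as a mean over probe sets (0.30, adjusted p = 0.0799). Smad6 and Skil, which restrain these pathways, rose by 0.94 ± 0.0949 and 0.67 ± 0.126. Without D11 2 of the 25 rose, and without A5 3.

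Of 24 genes of NF-kB signalling and inflammation 3 rose and 1 fell (median 0.19), a share of 16.7% beside 13.0% of all genes. Nfkbia, the inhibitor of NF-kB, rose by 1.07, 1.43, 1.21 and 1.52 in the 4 pairs (1.30 ± 0.0992, adjusted p = 0.00289), and all 5 of its probe sets had this sign. Tnfaip2 (0.80 ± 0.0826) and Cxcl10, a chemokine (1.03 ± 0.105), rose, and Icam1, an adhesion molecule, fell (-0.94 ± 0.118). Il6 and Cxcl1 differed by -0.01 and 0.08, and neither passed. The mean log2 intensity of Il6 was 2.71, below the lower quartile of gene means (4.27). Tnf and Il1b differed by 0.31 and 0.41, positive in all 4 pairs, and did not pass either (adjusted p = 0.0573 and 0.0625). Of the 24 differences 18 were positive and 6 negative. Interferon response genes gave 3 rises of 23 and a median of 0.05, a share of calls equal to the 13.0% of all genes, and 1 rise without D11 or without A5. Among the rises was Ddx58, the RNA sensor RIG-I (0.88 ± 0.131).

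Among 17 integrins and adhesion genes 5 rose and 2 fell. Itgam, the integrin CD11b of myeloid cells, rose from 8.73, 9.38, 7.79 and 8.35 to 9.63, 10.65, 9.33 and 10.2. The A1 array in EPZ4777 lay just below the D11 control, so the groups overlapped while each pair rose (1.39 ± 0.153, adjusted p = 0.00683). Itgal, the integrin CD11a (0.96 ± 0.11, or 0.61 with the mean over probe sets), Itgb2, which pairs with both (0.89), and the tetraspanin Cd9 (1.19 ± 0.142) also rose, and Itga6, a laminin receptor subunit, fell (-1.16 ± 0.091). Without D11 3 of these 17 rose and 1 fell. Of 17 growth factor receptors 5 rose and 1 fell, but none rose without D11 and 2 without A5. Il6st, the shared receptor subunit of the IL-6 family, fell (-1.71 ± 0.15, or -0.91 with the mean over probe sets), with all 4 of its probe sets of this sign, and IL-6 was part of the medium in both groups. Igf1r rose by 0.93 ± 0.132, and Csf2ra, Csf2rb and Csf2rb2, receptor subunits for GM-CSF and IL-3, by 0.70, 0.45 and 0.54.

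Genes of stress and survival showed no common direction. Among 20 p53 targets 3 rose, led by Trp53inp1 (1.64 ± 0.245, or 1.03 with the mean over probe sets), and 5 fell, led by Zmat3 (-0.92 ± 0.094). Among 23 FOXO factors and targets 4 rose and 2 fell. Bcl2l11, the death-promoting protein BIM, rose by 0.96, 0.9, 1.09 and 1.29 (1.06 ± 0.0917, adjusted p = 0.00442), with all 5 probe sets in 1 direction. Ccng2, a cyclin linked to arrest, rose by 1.46 ± 0.186. In the BCL2 family 3 of 14 rose and 2 fell, among them Bcl2 itself (-0.61 ± 0.108), of whose 5 probe sets 3 had this sign and whose mean over them did not pass (-0.20, adjusted p = 0.106). Calls made up 40% of the p53 list, 26.1% of the FOXO list and 35.7% of the BCL2 family, beside 13.0% of all genes. Without D11 1 p53 target rose and 1 fell, 1 FOXO gene rose and none fell, and 1 BCL2 family gene rose and none fell. Without A1 7 FOXO genes rose, without A4 2 p53 targets fell, and 1 BCL2 family gene rose without A4 or without A1. Of 7 sirtuins Sirt7 alone passed (0.53 ± 0.0992), a share near the 13.0% of all genes, and it lost its call without A4 (adjusted p = 0.0687), D11 (0.109) or A5 (0.0837). Sirt1 did not pass (0.14 ± 0.0798, adjusted p = 0.291).

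**Figure D4:**
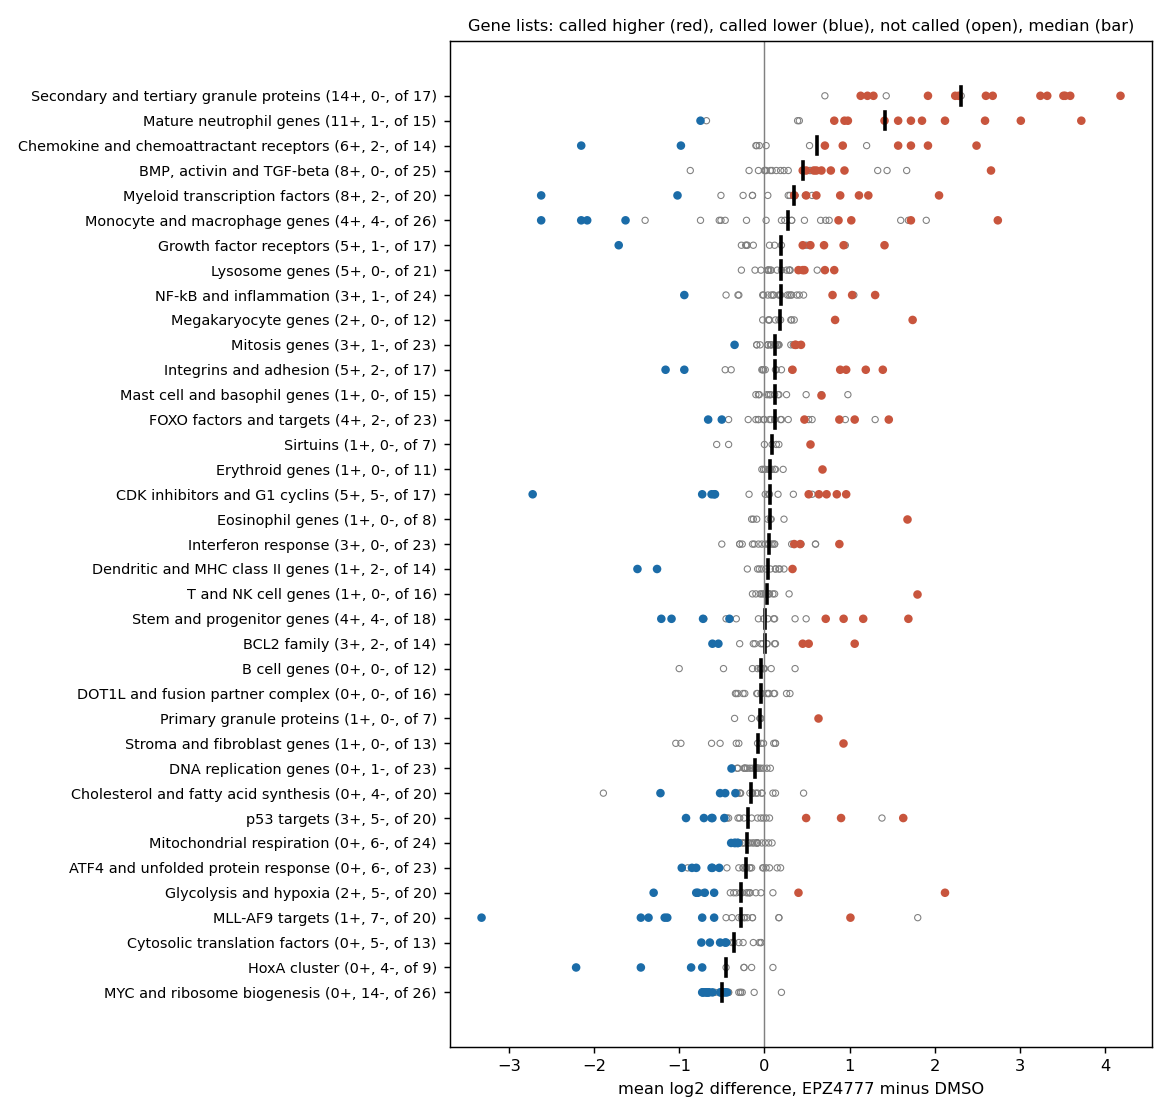
Each row is a gene list and each point the mean log2 difference (EPZ4777 minus DMSO) of 1 gene, filled where it passed the test. The black bar is the list's median, which runs from 2.31 for secondary and tertiary granule proteins to -0.50 for MYC and ribosome biogenesis.

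Markers of other blood and stromal cells gave from 0% to 16.7% of calls per list, beside 13.0% of all genes. The list of dendritic cell and MHC class II genes, described above, gave 21.4%. B cell genes gave 0 of 12, and T and NK cell genes 1 of 16. That gene, Nkg7, a protein of cytotoxic granules, rose evenly by 1.80, 1.74, 1.70 and 1.93 (1.79 ± 0.0779), while Cd3e, Cd4 and Prf1 differed by 0.04, 0.01 and 0.02. Eosinophil genes gave 1 of 8: Siglecf, a sialic acid-binding lectin, rose by 1.67 ± 0.125, while the granule genes Epx and Prg2 differed by -0.15 and -0.13. Mast cell and basophil genes gave 1 of 15, Mcpt8 (0.67 ± 0.0993), and erythroid genes 1 of 11, Car2 (0.68 ± 0.115), and neither passed without D11, nor Car2 without A4 (adjusted p = 0.0522). Of 13 stromal genes 1 passed, Acta2, an actin of contractile cells (0.92 ± 0.0945), which was 0.30 as a mean over its 3 probe sets, 1 of them of the other sign. The stromal list was negative in 9 genes, and in A1 Col3a1 differed by -4.09, Dcn by -2.52, Postn by -2.05, Col1a2 by -1.43 and Lum by -1.31, with high levels in the A1 control. The mean of this list was 6.76 there and 5.79 to 6.05 on the other 7 arrays, and its part in the differences of the A1 pair was not tested. The mean log2 intensity of a list per array was higher on each treated array than on each control for T and NK cell genes (4.41 to 4.52 in DMSO, 4.56 to 4.69 in EPZ4777), eosinophil genes (3.79 to 4.03, then 4.05 to 4.18) and mast cell and basophil genes (5.09 to 5.13, then 5.29 to 5.41). B cell genes lay at 4.92 to 5.02 and 4.73 to 4.96. The median differences were only 0.03 for T and NK cell genes, 0.06 for eosinophil genes and 0.12 for mast cell and basophil genes. Single genes, Nkg7 (1.79) and Siglecf (1.67), weigh on the means of the T and NK cell and the eosinophil lists. A gap between all treated and all control arrays was also seen in 18.0% of the single genes tested. The part of such cells in the changes above was not tested.

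Megakaryocyte genes gave 2 of 12, and none without A4 or without D11. Pf4, a platelet chemokine, rose by 2.84 and 2.57 in A4 and D11 and by 0.72 and 0.82 in A1 and A5 (1.74 ± 0.389). Its call was lost without A4, D11 or A5. Vwf, von Willebrand factor, rose by 0.83 ± 0.199 and lost its call without A4, D11 or A1. Gp5 and Gp9, subunits of a platelet receptor, differed by 0.05 each. Selp, Itgb3 and Gp6 differed by 0.35, 0.32 and 0.31, positive in all 4 pairs, and did not pass. Of the 12 differences 11 were positive and 1 was negative. The list mean lay at 5.07 to 5.27 in DMSO and at 5.35 to 5.76 in EPZ4777, and the median difference of the list was 0.18. Since RNA was taken from whole cultures, more cells of a type and more RNA per cell cannot be told apart in any of these lists.

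A separate term asked where the response was not common, that is, where it differed between the pairs labelled shSirt1 at 21 days and the shLUC pairs at 6 days. It passed in 3 genes (0.0165% of those tested). C1qb, a chain of complement C1q, rose by 3.22 and 3.44 in A4 and D11 and changed by -0.23 and -0.03 in A1 and A5 (difference between arms, labelled shSirt1 minus shLUC, -3.46 ± 0.162, adjusted p = 0.0244). Its treated levels of 7.09 and 7.89 in A4 and D11 stood apart from 3.6 and 3.83 in A1 and A5, while the controls lay between 3.84 and 4.45. Mmp13, a collagenase, rose by 1.93 and 1.58 and fell by 1.98 and 1.77 (-3.63 ± 0.184, adjusted p = 0.0247).

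Smad1, which carries BMP signals, did the reverse of C1qb. It differed by -0.46 and -0.26 in the shLUC pairs and rose by 3.18 and 3.29 in A1 and A5, to 7.61 and 6.73 (3.59 ± 0.15, adjusted p = 0.0244). Csn2, a casein of milk, also had opposite signs, 1.47 and 1.30 against -1.59 and -3.08, but the difference did not pass (-3.72 ± 0.482, adjusted p = 0.24). The count of 3 was 0 without A4, without D11 or without the block, 39 without A1 and 194 without A5. At an unadjusted p under 0.05 the arms differed in 1884 genes.

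**Figure D5:**
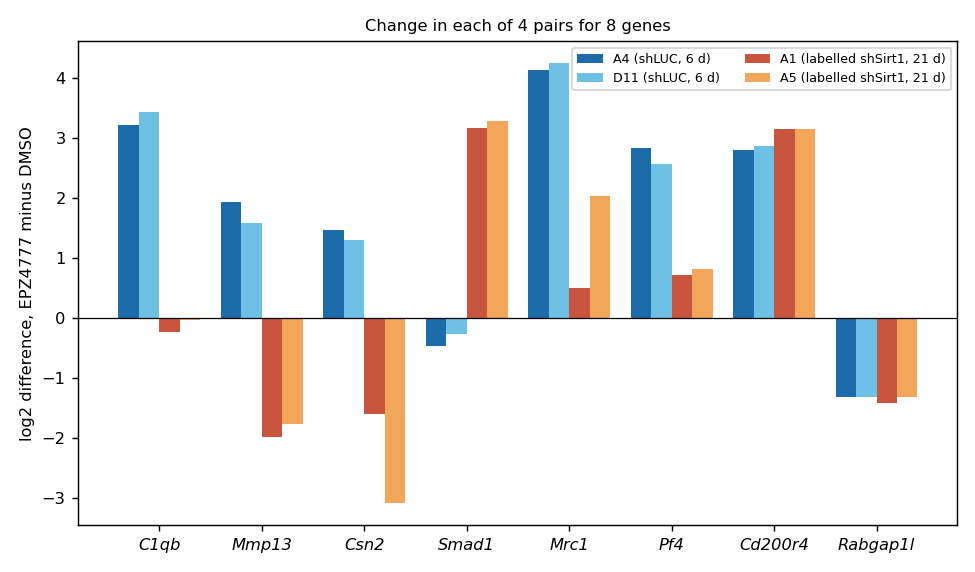
Bars give the log2 difference (EPZ4777 minus DMSO) in each of the 4 pairs for 8 genes, starting at 0. C1qb, Mmp13 and Smad1 passed the test of the difference between arms. Csn2, Mrc1 and Pf4 did not, and Cd200r4 and Rabgap1l had even changes.

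Over all protein-coding genes with a listed promoter, 51.4% of the 250-base windows were rich in CpG, meaning at least 50% G or C and a CpG frequency of at least 0.6 of that expected. The share was 52.5% among genes called higher and 66.1% among those called lower. Among genes past 1 log2 in every pair it was 35.2% (31 of 88) for rises and 34.8% (8 of 23) for falls. The letters TTGCNNAA, searched on both strands, occurred in 8.0% of all windows, in 9.6% and 7.4% of those called higher and lower, in 18.2% (16 of 88) of the large rises and in 13.0% (3 of 23) of the large falls. The letters CTGTCA, a core bound by MEIS proteins, occurred in 14.8% of all windows, in 17.0% of the large rises and in 8.7% of the large falls. Between 80.6% and 85.2% of the genes of a set had an entry, and these shares are given without a test.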

How the data were processed

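RNA of 8 samples was hybridised to 1 Affymetrix array each. The authors deposited 1 intensity value per probe set and array, computed by RMA (version not given, per the submitters' processing notes). RMA corrects background, normalizes between arrays and compresses low signals, so changes of dim genes are understated. The deposited intensity values reach 24500 and were therefore taken as linear.

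The log2 was taken without a pseudocount or further normalization. Of 45101 probe sets 64 controls were left out, 34945 had 1 gene symbol, 932 several, and 9160 were unlisted. Symbols come from the platform annotation (0 were updated). The brightest probe set on average stood for each gene, which gave 18193 genes. Genes were tested with lmFit and eBayes of limma 3.58.1 under R 4.3.3, on code plus agent (3 residual degrees of freedom), two-sided, with Benjamini-Hochberg adjustment over all genes at 0.05. The difference between arms added an agent by hairpin term (2 residual degrees of freedom). An exact test over 4 pairs cannot go below p = 0.125.

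The pairing comes from the codes in the titles. Deviations from the agent means correlated over genes within a code at 0.121 (A4), 0.476 (D11), 0.383 (A1) and 0.353 (A5). The highest value of A4 with another code was 0.171, above its own.

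Genes named are the 12 rises and 12 falls with the largest change in their weakest pair among those that passed with 1 sign in 4 pairs, up to 4 passing members per list with the largest differences, and Sirt1, Dot1l, Meis1, Hoxa7, Hoxa9, Hoxa10, Irf8, Cdkn2c, Cd177, Lcn2 and Myc. Other genes named in the lists, and the contrast of even with uneven genes, were chosen after their values were seen. Provisional symbols (Rik, Gm and LOC names) were counted but not named. The members and the gene lists were chosen with earlier results of these data known. The 37 lists hold 714 entries from general knowledge, 666 symbols, of which 604 were measured, and some genes stand on several lists. Promoter sequences are RefSeq's (GRCm38.p6). The fit was checked on simulated data. Alternatives were other probe set rules, removal of dim genes, a pseudocount of 16, quantile normalization, median centring, other variance models, other or no blocks, other thresholds, single arms and each pair left out.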

Additional observations from a re-analysis of the deposited data

Results flagged for a closer look

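In 256 groups of 4 arrays of 1 agent (the genes named in the text, DMSO and EPZ4777 apart), 8 held an array far from the other 3, by Dixon's test of the gap against the group's range. Chance alone gives about 1 in 20. In DMSO these were Sirt1 in A1 (log2 intensity 8.70, next array 9.46), Hoxa5 in D11 (8.94, next 8.53), Cenpe in A4 (9.44, next 9.77), Zmat3 in A5 (6.52, next 7.19), Ccng2 in A4 (7.92, next 8.5), Oas3 in D11 (3.84, next 3.92) and Bid in A5 (9.79, next 10.01). In EPZ4777 it was Cdkn2a in A1 (5.41, next 6.79).

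The response differed between the arms, labelled shSirt1 minus shLUC, by -3.46 for C1qb, -3.63 for Mmp13 and 3.59 for Smad1, each past the test in limma. For Csn2 the arms had opposite signs in every pair and the difference was -3.72, which did not pass (adjusted p = 0.24). Hairpin and time in drug cannot be told apart in these values.

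Of 10092 probe sets with no single gene symbol, which the comparisons leave out, 415 (4.11%) passed the pooled test, beside 3554 (10.2%) of the 34945 with 1 symbol in a fit adjusted over named and unnamed probe sets together. Among the unnamed, 21 rose and 5 fell by at least 1 log2 in every pair.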

How the results depend on the processing

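Of 20 alternatives for the pooled test, those scored gene by gene turned the sign of no called gene among the 128 given by the naming rule. Other thresholds and the fit over every probe set were not scored by gene, and removal of dim genes kept 112. Other blocks, other variance models, single arms and pairs left out could not turn a gene with 1 sign in all 4 pairs. The 16 alternatives for the difference between arms were scored on C1qb, Mmp13 and Smad1 only, which are not among the 128. Myc, not called (0.20), was -0.03 in the pairs labelled shSirt1 alone. With 8 arrays and a code as block, leaving out 1 array of a pair equals leaving out the pair. The 2367 calls (1151 higher, 1216 lower) became 368 (251 and 117) at an adjusted p under 0.01 and 3865 (1792 and 2073) under 0.1, and 3999 (1812 and 2187) over every probe set with 1 symbol. With no replicate block and the agent alone they were 1359 (669 and 690), with the code as a random block 3718, of which 2088 lower, and in the pairs labelled shSirt1 alone 297 (199 and 98). With a pair left out they ranged from 314 to 2259, with 222 to 1090 higher and 92 to 1169 lower. Group means without the block gave 1979. The 110 rises and 30 falls by 1 log2 in every pair became 387 and 168 at 0.5 log2, 22 and 5 at 2 log2, 240 and 81 in the shLUC pairs alone and 226 and 120 in the pairs labelled shSirt1 alone. Over every probe set 48 fell, and with a pair left out 112 to 201 rose and 31 to 64 fell. The 3 genes that differed between arms became 0 at an adjusted p under 0.01, with a pseudocount of 16 and without the block. The count was 5 at an adjusted p under 0.1, 6 over every probe set, and 0 to 194 with a pair left out. It was also 0 with dim genes removed, but that filter takes out C1qb, Mmp13 and Smad1 themselves. Their mean log2 intensities were 4.81, 5 and 4.39, below the median of gene means (6.13), so none of them could be called there. The share of calls that were higher, 48.6%, was 68.2% at an adjusted p under 0.01, 67% in the pairs labelled shSirt1 alone, 70.7% without D11 and 66.8% without A5, but 39.7% (990 higher, 1502 lower) with median centring and 43.1% with dim genes removed. A stricter threshold leaves fewer calls by construction, and the cause of the other shifts was not tested. Itgax, Erg, Idi1, Bub1b, Pfkp and Usp18 lost their calls under several alternatives. Only 4 pairs limit the precision, and signals near the array floor are compressed.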

Other observations

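Some called genes lie next to each other on a chromosome. Of 18145 genes placed by RefSeq order, 37 runs of 3 or more neighbouring measured genes were called in 1 direction, 18 higher and 19 lower, and the longest held 7. The runs described here were picked after their values were seen, and related genes may share probe sequence. The longest run rose and held the myeloid receptors Cd300a (0.55), Cd300lb (1.08), Cd300ld (0.92), Cd300c2 (1.33) and Cd300lf (1.78), with Rab37 (0.77) and Slc9a3r1 (0.45) among them. A run of 5 that rose held the interleukin-1 and interleukin-18 receptor genes Il1r2 (3.01), Il1r1 (0.64), Il1rl2 (1.86), Il18r1 (1.0) and Il18rap (1.40). A run of 6 fell: the immunoproteasome subunits Psmb9 (-1.01) and Psmb8 (-1.61), the peptide transporter subunits Tap1 (-0.94) and Tap2 (-1.01), and H2-Ob (-1.01) and H2-Ab1 (-1.49) of MHC class II.

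Among 132 nameable genes that moved by 1 log2 or more in every pair, the standard deviation over pairs divided by the mean difference had a median of 0.25. Rabgap1l (SD 0.05 over 4 pairs, mean -1.34), Shisa2 (0.09, mean 1.85), Cd200r4 and Nkg7 (0.1, mean 1.79) were among the most even, and Lyve1, Ccr2, Hpgd and S100a9 among the least. Lyve1, a hyaluronan receptor, rose by 1.14, 2.92, 1.57 and 3.9.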
